A study of Caenorhabditis elegans with 9 samples.

Results

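The comparison described here set *C. elegans* fed bacteria carrying the *his-3* RNAi clone against worms fed bacteria with the empty vector (EV). It took the 3 *his-3* RNAi cultures and the 3 EV cultures, 6 of the 9 RNA-seq libraries of the series, and every gene that passed the read filter, 16817 of the 46739 genes in the table. All worms were wild-type N2 animals that were bleached, plated as L1 larvae on the RNAi bacteria and collected at the L4 stage, and both groups therefore shared the strain, the stage of harvest and the vector. The other 3 libraries came from worms on *cco-1* RNAi, which targets the gene now named *cox-5B*, a nuclear-encoded subunit of the respiratory chain. Nothing in the labels says whether the cultures of a group were grown on separate days, so the p-values measure the spread between these cultures only.

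Histones H2A, H2B, H3 and H4 form the core of the nucleosome around which DNA is wound. In *C. elegans* each of them is encoded by many near-identical genes, which lie in clusters and are mostly used when DNA is replicated. *his-3* encodes an H2A. Feeding RNAi gives double-stranded RNA that is cut into small RNAs, and these can act on any transcript that shares enough sequence with the clone. The libraries were made from poly(A) RNA. Replication-dependent histone transcripts usually end in a stem-loop in place of a poly(A) tail, so the values cover only the polyadenylated part of these transcripts. Reads that fitted several copies equally well were not counted, so copies without unique sequence appear with no reads.

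The values below are counts scaled by edgeR's TMM factors to a common depth, and a log2 fold change is given ± its standard error, with n = 3 a side. edgeR's quasi-likelihood test with Benjamini-Hochberg adjustment over all 16817 genes called 26.9% of them higher and 27.9% lower with *his-3* RNAi at an adjusted p under 0.05. When a log2 size of 1 or more was also asked for, 7.87% were higher and 3.6% lower, and at the size of 2 used by the study 3.23% were higher and 0.714% lower. "Rose" and "fell" below mean that the adjusted p was under 0.05. Counts of list members that rose or fell are to be read beside the 26.9% and 27.9% of all genes. The split of the calls at any size depended on the scaling. Of the genes called, 49.1% were higher under TMM, 60.7% with upper quartile scaling, 77.3% with library size alone and 83.8% with *act-1* and *pmp-3* as the scale, the reference genes of the study's PCR. The last scaling called 9450 of the 16817 genes higher and 1827 lower. It raised the median over all genes from 0.02 to 0.31 on the log2 scale. A fall under about this size under TMM can therefore turn into a rise, and the size of a small rise depends on the scaling. The 3 libraries of a side did not overlap for 60% of genes, so a lack of overlap alone was common.

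**Figure D1:**
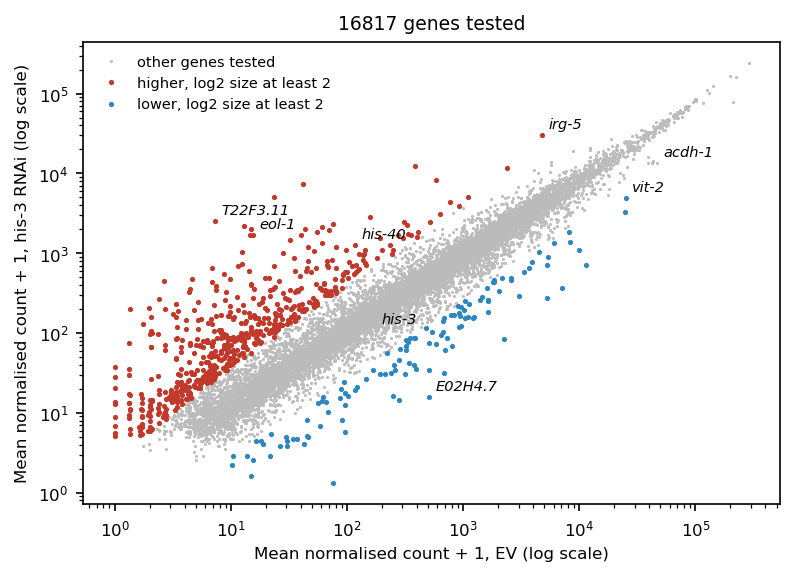
Mean normalised count plus 1 of each tested gene in EV (x axis, log scale) and with *his-3* RNAi (y axis, log scale), each the mean of 3 libraries. Genes that passed the test with a log2 size of at least 2 are coloured, 544 higher (red) and 120 lower (blue). Of the 544 red points, 504 lie at an EV mean of up to 100.

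The gene that the clone is named for was lower in the treated worms. According to the study the clone targets several H2A genes, and which of those tested here they are was not examined. Of 8 tested H2A genes 7 rose and *his-3* alone fell, so reads did not fall in most genes of the targeted class. *his-3* stood at 175, 180.1 and 169 normalised counts in EV and 107, 100.3 and 119.9 with *his-3* RNAi (log2 fold change -0.68 ± 0.11, adjusted p = 6.4e-05). All *his-3* RNAi libraries lay below all EV libraries, and before scaling the reads summed over 3 libraries were 350 against 511. The *cco-1* RNAi libraries held less of it still, 22.5, 16.97 and 13.6 normalised counts, and *his-3* was 2.60 ± 0.17 higher on the log2 scale with *his-3* RNAi than with *cco-1* RNAi.

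The other core histone genes moved the opposite way. Of 65 core histone genes, 31 passed the filter, and of these 29 rose, *his-3* alone fell and the H4 gene *his-37* did not pass the test. At a log2 size of at least 1, 28 of 31 were higher, beside 7.87% of all genes, with a median log2 fold change of 2.37 over the 31 against 0.02 over all genes. A gene low in EV passes the filter only if it is read in other libraries, so the 31 do not stand for all 65. In each of the 29 the *his-3* RNAi libraries lay above every EV library.

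The class medians were 2.43 for 8 H2A genes, 2.72 for 7 H2B genes, 2.25 for 8 H3 genes and 2.26 for 8 H4 genes. Summed over all genes of a class, tested or not, H3 counts went from 368 ± 15.5 (SD, n = 3) in EV to 2788 ± 202 with *his-3* RNAi. That was 7.58 times as much. H2B counts went from 1389.8 ± 50.8 to 4131 ± 101, 2.97 times as much. The ratio was 2.03 for H2A, the class the clone belongs to, and 1.51 for H4. In every class the libraries of the 2 groups did not overlap, and the exact two-sided permutation test gave p = 0.1, the smallest that 3 against 3 allows. Normalised counts of different genes also depend on their length, and the class sums are dominated by the few genes with many reads.

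Genes beside *his-3* in its cluster on chromosome V rose. The H2B gene *his-4* had 39.4, 53.02 and 50.2 normalised counts in EV and 184, 173 and 208 with *his-3* RNAi, with a log2 fold change of 1.98 ± 0.14. For the H3 gene *his-2* the change was 1.79 ± 0.22 and for the H4 gene *his-1* it was 2.77 ± 0.19. No library of either side overlapped the other in these 3 genes.

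Among H3 genes the change was largest for *his-32*, from 5.18, 14.4 and 11.4 normalised counts to 288, 279.6 and 288 (log2 fold change 4.78 ± 0.18, adjusted p = 1.9e-12). Next came *his-63*, at 4.62 ± 0.23, and *his-40* on the X chromosome was the H3 gene with most reads, going from 116, 129 and 102 to 1151, 1343 and 1289.7. Of the H2A genes, the class of the clone, *his-61* and *his-68* rose by 2.55 ± 0.12 and 2.31 ± 0.08. The H2A gene *his-35* and the H2B gene *his-41* had over 1000 normalised counts in EV and rose less. *his-35* had 2669, 2739 and 2551 normalised counts in EV and 4321, 4792 and 4623 with *his-3* RNAi (0.79 ± 0.05), and *his-41* had 1276, 1169 and 1159 normalised counts in EV and 2979, 2939.7 and 2932 with *his-3* RNAi (1.297 ± 0.044). The third gene at this level, *his-37*, had 2047, 2204 and 2045 normalised counts in EV and 2025, 1998 and 2063 with *his-3* RNAi, which overlap (log2 fold change -0.05 ± 0.04, adjusted p = 0.37). Its sign turned with the scaling, to 0.24 on the scale of *act-1* and *pmp-3*.

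The filter left out 34 core histone genes, 22 of them without a read in any library. Some of the rest were read almost only with *his-3* RNAi. The H4 gene *his-31* had 0, 0 and 2 reads in EV and 85, 81 and 92 with *his-3* RNAi. The H2A gene *his-16* had 1, 5 and 2 and 41, 60 and 49 reads, and the H3 gene *his-45* had 3, 4 and 3 and 36, 29 and 29. They were read in too few of the 9 libraries to be tested, and a fit without the filter called 33 core histone genes higher at a log2 size of at least 1, beside 7.26% of all genes in that fit.

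**Figure D2:**
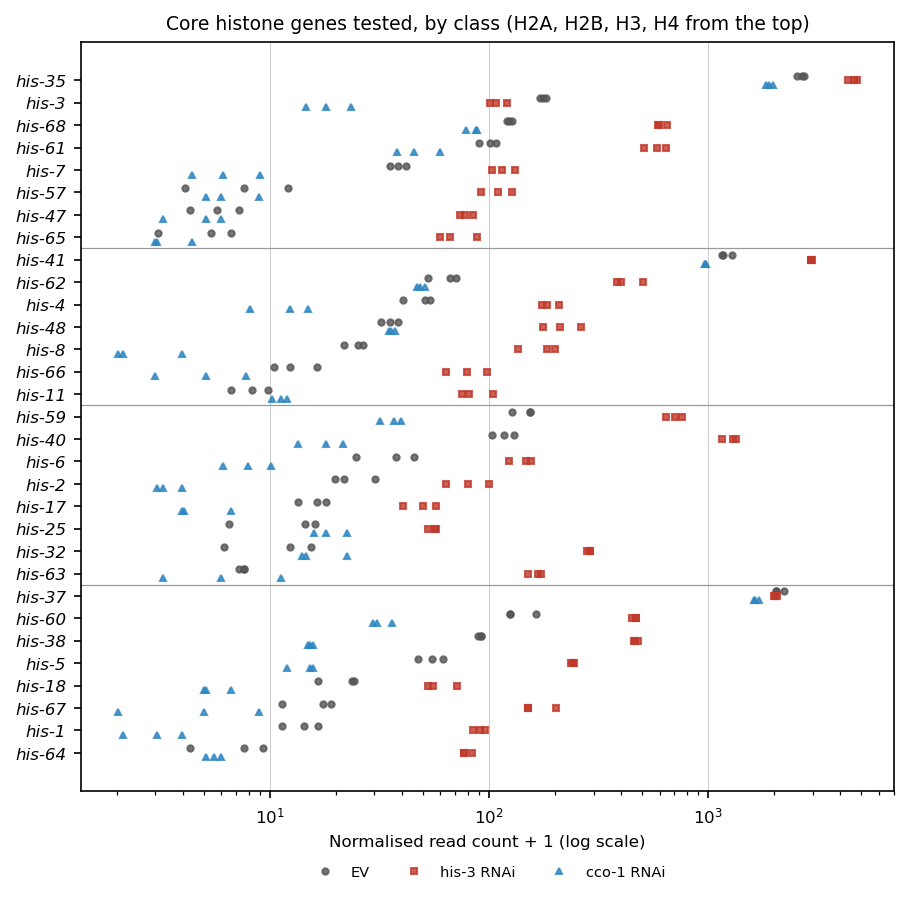
Normalised read count plus 1 (log scale) of the 31 tested core histone genes in every library, with 1 point per library and horizontal lines between the H2A, H2B, H3 and H4 genes. In 29 genes all 3 *his-3* RNAi points lie to the right of the EV points, and in *his-3* they lie to the left, at 107, 100.3 and 119.9.

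The replication-independent variants are made outside the phase of DNA synthesis. Of 8 tested variant genes 3 rose and none fell, beside 26.9% and 27.9% of all genes. None reached a log2 size of 1, and the median was 0.04. The H3.3 gene *his-72* had 3647, 3617 and 3553 normalised counts in EV and 4582, 5337 and 5011 with *his-3* RNAi (0.47 ± 0.05), and *htz-1*, which encodes H2A.Z, changed by 0.22 ± 0.06. Of 9 linker histone genes, which encode the H1 that binds outside the nucleosome core, 2 rose and 3 fell under TMM. These counts are close to the 26.9% and 27.9% of all genes. When scaled to *act-1* and *pmp-3*, 4 rose and 1 fell. *hil-1* rose from 8.29, 17.7 and 22.7 to 77.8, 74.5 and 86.9 (2.27 ± 0.24) and *hil-3* by 0.86 ± 0.08, whereas *hil-2* changed by -0.51 ± 0.06.

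Genes that process, carry or assemble histones were taken next. *cdl-1*, the protein that binds the stem-loop of histone transcripts, changed by 0.28 ± 0.05. It was the 1 gene that rose in a list of 6 for histone mRNA processing and the CSR-1 pathway, in which 4 fell, with a median of -0.14. The Argonaute gene *csr-1* changed by -0.19 ± 0.04, with the opposite sign under library size alone and with *act-1* and *pmp-3*. The falls in this list lie within the shift between scalings, and under the last scaling 3 of the 6 rose and none fell. Of 12 histone chaperones 8 rose and 1 fell, beside 26.9% and 27.9% of all genes. The one that fell was *nap-1*, a chaperone of H2A and H2B, from 29478, 29704 and 29421 to 17882, 17299.7 and 17639 (-0.75 ± 0.04), and the largest rise was that of *chaf-1*, a subunit of the assembly factor that acts at replication (0.37 ± 0.07). Of 32 DNA replication genes 20 rose and 1 fell, with a median of 0.16 and a highest value of 0.51. *cyd-1*, the cyclin D of the worm, rose from 86.05, 87.3 and 91.8 to 159, 198 and 196 (1.06 ± 0.11). Among 29 chromatin remodelling genes 17 rose and 2 fell, none by a log2 size of 1, and *isw-1*, the ATPase of ISWI complexes, had 3184, 3032 and 2993 normalised counts in EV and 3641, 3332 and 3608 with *his-3* RNAi (0.20 ± 0.05).

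Many genes were read with *his-3* RNAi that were close to silent in EV. The number of genes with at least 1 read was 20418 to 20670 with *his-3* RNAi, beside 19451 to 19550 in EV and 19401 to 19570 in the *cco-1* RNAi libraries (exact two-sided permutation test of *his-3* RNAi against EV, p = 0.1, the smallest possible). The *his-3* RNAi libraries held 27253253 to 29089902 reads on genes and the EV libraries 28051414 to 32017517. A total of 141 genes were read more than 5 times in every *his-3* RNAi library and no more than once in any EV library. The reverse held for 3 genes, and 49 genes stood out in the same way in *cco-1* RNAi against EV. Only 24 of the 141 passed the filter, which asks for more than 5 reads in more than 3 of 9 libraries and so removes any gene read in 1 group of 3 only. In all, 244 genes had more than 5 reads in each *his-3* RNAi library and at most 5 in each of the 6 others, compared with 16 such genes for EV and 43 for *cco-1* RNAi.

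Of the 141 genes, 107 were protein-coding and 31 were annotated as pseudogenes, and 61 lay on chromosome V, 28 on II, 18 on I, 16 on IV, 10 on X and 8 on III. The largest named families were 8 *pals* genes, which share a domain of unknown biochemical function, 7 *fbxa* genes, which encode F-box proteins of ubiquitin ligases, and 5 *math* genes. The 10 with the highest counts are shown by library. *F26F2.4* had 1, 1 and 1 reads in EV and 1192, 966 and 1079 with *his-3* RNAi. *pals-29* went from 1, 0 and 1 to 497, 544 and 442 and *pals-11* from 0, 0 and 0 to 477, 488 and 441 reads. In every one of these genes the lowest *his-3* RNAi library held over 100 reads.

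*Y60C6A.2* had 319, 362 and 419 reads with *his-3* RNAi, *C53A5.9* had 347, 303 and 289 and *fbxa-75* had 245, 255 and 239. *T05A8.2* was without a read in all 6 EV and *cco-1* RNAi libraries and had 205, 241 and 255 reads with *his-3* RNAi. For *pals-5* the counts were 187, 215 and 218, for *C43D7.4* 162, 259 and 167 and for *F57G4.1* 226, 192 and 229. *F57G4.1* was the only one of the 10 to pass the filter, through its 28, 50 and 37 reads with *cco-1* RNAi. A neighbour of *F26F2.4*, *F26F2.3*, had 3, 2 and 3 reads in EV and 1632, 1898 and 1594 with *his-3* RNAi. It fell outside the rule for silent genes and was chosen after its values were seen.

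**Figure D3:**
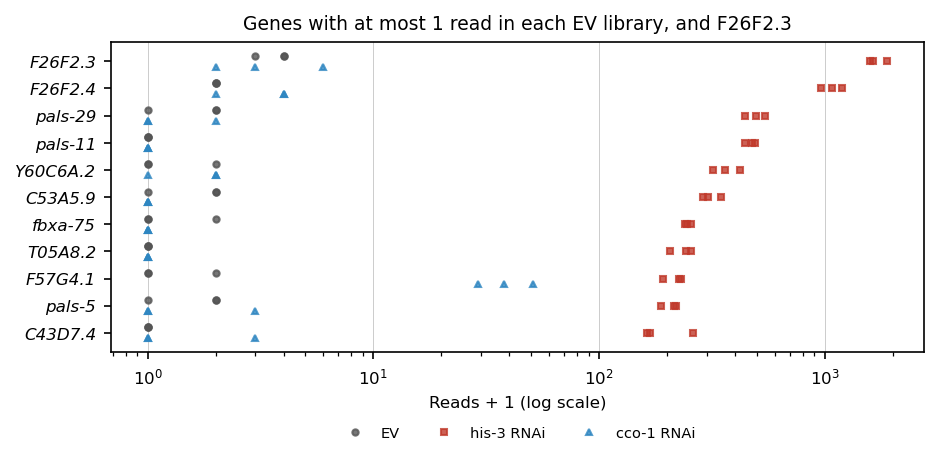
Reads plus 1 (log scale) in every library for the 10 genes with the highest mean with *his-3* RNAi among those with at most 1 read in each EV library, and for *F26F2.3*. The *his-3* RNAi points lie above 100 reads in each gene, while the *cco-1* RNAi points stay under 10 except in *F57G4.1*.

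Without the filter, edgeR called 951 genes higher and 147 lower at a log2 size of at least 2, which are 3.99% and 0.617% of the 23808 genes with a read. In windows of 100 kb, 40 of 1005 windows held 5 or more of the higher genes and 571 held none, whereas 4 windows held 5 or more genes that were lower. The most in a window was 13, reached in 4 windows. One spans positions 13100000 to 13199999 of chromosome I (build WBcel235), where 13 of 28 genes with a read were higher, 11 of them *pals* genes. Another spans 20500000 to 20599999 of chromosome V, with 13 of 36 genes, among them *F26F2.1*, *F26F2.3*, *F26F2.4* and *F26F2.5*. The other two lie on chromosome II, from 1600000 to 1699999 with 13 of 39 genes, 5 of them *fbxa* genes, and from 1800000 to 1899999 with 13 of 31 genes, 6 of them *math* genes. Neighbouring members of a family are related in sequence, and reads that fitted several of them equally well were not counted. The genes of a window are not independent.

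Genes of the intracellular pathogen response rose with *his-3* RNAi. This response is the set of genes that worms switch on when microsporidia or the Orsay virus infect intestinal cells, and *pals-22* and *pals-25* are known as its repressor and activator. Of 27 tested genes of the list (*pals* genes and the cullin *cul-6*), 23 rose and 2 fell. At a log2 size of at least 1, 17 were higher and 2 lower, with a median of 2.67, beside 7.87% and 3.6% of all genes. Without the filter 28 of 38 members with a read were higher at that size. The *pals* genes lie in clusters and are related in sequence, and reads that fitted several of them equally well were not counted.

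*pals-14* had 10.4, 9.94 and 14.2 normalised counts in EV and 755, 728 and 732 with *his-3* RNAi (log2 fold change 5.98 ± 0.12, adjusted p = 1.1e-15). *pals-4* went from 1.04, 3.31 and 5.68 to 349, 305 and 317 (6.51 ± 0.23) and *pals-3* from 7.26, 12.15 and 4.73 to 329.8, 327 and 332 (5.37 ± 0.19). On chromosome V, *pals-37* rose by 4.14 ± 0.12 and *pals-39* by 4.12 ± 0.11. *cul-6*, a scaffold of ubiquitin ligases, rose from 260.2, 251 and 299 to 667, 575 and 739 (1.29 ± 0.10). *pals-18* and *pals-19* fell, *pals-19* from 249.9, 233 and 227 to 70.3, 67.1 and 62.3 (-1.83 ± 0.11) and *pals-18* by 1.52 ± 0.10 on the log2 scale. The activator *pals-25* did not pass the test (log2 fold change 0.04 ± 0.13, adjusted p = 0.82), and its sign turned in 3 of 17 alternative fits. *pals-22* rose by 0.27 ± 0.10, a call lost in 7 of them. The values of *pals-22*, *pals-25*, *pals-18* and *cul-6* were chosen for what the genes are known for, after values of the family had been seen.

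Other genes of that response were looked at after the values of the *pals* genes had been seen. *eol-1* had 15.6, 12.15 and 16.09 normalised counts in EV and 1861, 1597 and 1681 with *his-3* RNAi (log2 fold change 6.85 ± 0.12, adjusted p = 1.8e-16) and was among the 15 largest rises. *F26F2.1* had 13.5, 5.52 and 17.04 normalised counts in EV and 2125, 2336 and 2119.6 with *his-3* RNAi (7.46 ± 0.13), *fbxa-158* rose by 6.18 ± 0.18 and *skr-5*, a Skp1-related adaptor of ubiquitin ligases, by 2.23 ± 0.17. With *cco-1* RNAi *eol-1* had 45.02, 55.9 and 46.5 normalised counts, whereas *skr-5* had 141, 172 and 194, beside 148, 131 and 149 with *his-3* RNAi.

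Genes known from infection with bacteria were also among those that rose. In the list of *irg* and CUB-like *dod* genes, 16 of 20 rose and 1 fell, beside 26.9% and 27.9% of all genes. By a log2 size of at least 1, 12 were higher, beside 7.87% of all genes, and the median of the list was 1.66. *irg-5* was the most abundant, with 4679.9, 5277 and 4445 normalised counts in EV and 29013, 33188 and 29953 with *his-3* RNAi (log2 fold change 2.68 ± 0.07, adjusted p = 1.2e-14), and it was lower in *cco-1* RNAi at 1857, 1897 and 1956. *dod-22* went from 156, 175 and 141 to 2916, 2736 and 2920.2 (4.19 ± 0.07), *irg-2* rose by 4.01 ± 0.13, *dod-20* by 4.02 ± 0.12 and *dct-17* by 2.12 ± 0.05.

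F-box genes rose more often than they fell, with a median of 0.41. At a log2 size of at least 1, 49 of 167 tested were higher and 5 lower, beside 7.87% and 3.6% of all genes. *fbxa-24* had 49.8, 62.97 and 48.3 normalised counts in EV and 1651, 1887 and 2013 with *his-3* RNAi (5.11 ± 0.13) and *fbxa-165* had 3, 0 and 0 reads in EV and 154, 177 and 170 with *his-3* RNAi. Of 138 C-type lectins 28 were higher and 23 lower by that size. *clec-72* rose from 73.6, 81.7 and 82.3 to 1122, 1182 and 1271 (3.91 ± 0.08) and *clec-67* by 3.01 ± 0.06, while *clec-56* fell from 1163, 1118 and 1197 to 336, 355 and 332 (-1.76 ± 0.06) and *clec-22* changed by -3.32 ± 0.36. Lysozymes and saposins, which act on bacterial walls and membranes, fell more often, with 7 higher and 14 lower of 36 tested. *lys-4* went from 3730.2, 3503 and 3764 to 676, 579 and 679.8 (-2.51 ± 0.06), *lys-7* changed by -2.76 ± 0.09, *lys-8* by -1.12 ± 0.04 and *spp-4* by -1.67 ± 0.06.

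Among the 15 largest rises by the rule for named genes (groups that do not overlap and a mean of at least 100 over the 6 libraries) were several genes whose function is not settled. *T22F3.11* had 7.26, 7.73 and 3.79 normalised counts in EV and 2025, 2701 and 2969 with *his-3* RNAi (log2 fold change 8.67 ± 0.22, adjusted p = 1.3e-14), *B0507.8* had 14.5, 14.4 and 13.3 normalised counts in EV and 2026, 2025 and 1935 with *his-3* RNAi (7.14 ± 0.15) and *C25F9.11* rose by 6.91 ± 0.12. *C50F7.5* had 0, 9.94 and 0.946 normalised counts in EV and 354, 513 and 542 with *his-3* RNAi, and EV 2 held nearly all of its EV reads. *srw-86*, named as a chemoreceptor gene, went from 2.07, 0 and 2.84 to 453, 469 and 433 (7.95 ± 0.22). The largest falls began with *E02H4.7*, from 534, 474 and 528 to 12.18, 18.4 and 14.2 (log2 fold change -5.09 ± 0.13, adjusted p = 1.4e-14). *Y40H7A.10* had 697, 644 and 693 normalised counts in EV and 32.8, 24.8 and 34.9 with *his-3* RNAi (-4.45 ± 0.11), *F17B5.1* changed by -3.58 ± 0.10, the cytochrome P450 *cyp-14A2* by -4.37 ± 0.15 and the carboxylesterase *cest-3* by -3.94 ± 0.13. Both lists were ranked by the fold change itself, so their sizes describe the extremes and are not a test.

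**Figure D4:**
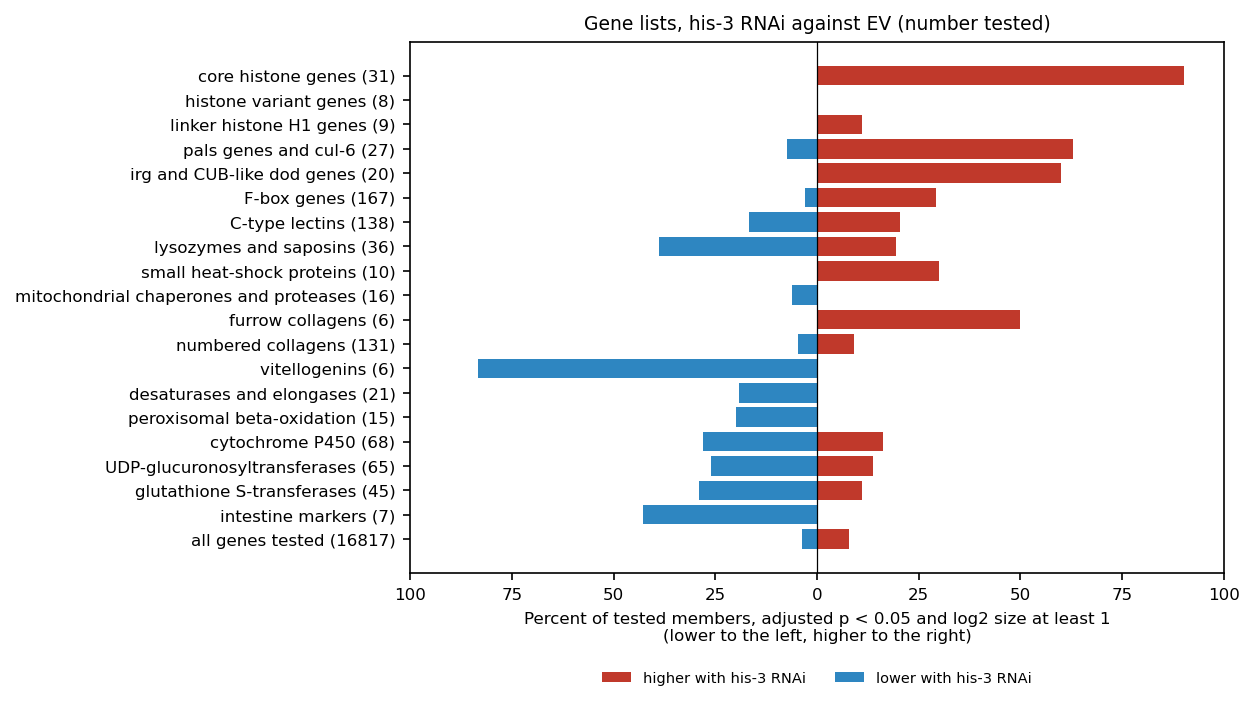
Percent of the tested members of 19 gene lists, and of all genes, that were higher (red, to the right) or lower (blue, to the left) with *his-3* RNAi at an adjusted p under 0.05 and a log2 size of at least 1, with the number tested in brackets. Core histones, *pals* and *irg* genes stand to the right, with 28 of 31, 17 of 27 and 12 of 20 higher, and vitellogenins to the left, with 5 of 6 lower.

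Cytosolic chaperone genes moved both ways. Among 14 cytosolic HSP70 and HSP90 genes 3 rose and 8 fell, which became 7 and none with *act-1* and *pmp-3* as the scale. The 3 that rose are heat-inducible HSP70 genes. *F44E5.4* went from 11.4, 12.15 and 5.68 to 57.2, 84.6 and 92.5 (3.01 ± 0.28) and *F44E5.5* rose by 2.25 ± 0.23. The 2 genes share near-identical sequence, and reads that fitted both equally well were not counted. *hsp-70* had 85.01, 75.1 and 97.5 normalised counts in EV and 267, 270.4 and 318 with *his-3* RNAi (1.72 ± 0.13).

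Small heat-shock proteins hold unfolded proteins in solution, and the *hsp-16* genes among them are strongly induced by heat. Of 10 tested genes of this family 5 rose and 3 fell, with a median of 0.53, and with *act-1* and *pmp-3* as the scale 7 rose and none fell. At a log2 size of at least 2, 3 were higher and none lower, beside 3.23% and 0.714% of all genes. All 3 are *hsp-16* genes. *hsp-16.41* had 25.9, 18.8 and 22.7 normalised counts in EV and 798, 572 and 731 with *his-3* RNAi (log2 fold change 4.95 ± 0.19, adjusted p = 2.3e-12). *hsp-16.2* went from 40.4, 45.3 and 48.3 to 726, 488 and 728 (3.85 ± 0.20) and *hsp-16.48* from 87.1, 111.6 and 111 to 968, 503 and 876 (2.92 ± 0.22), with no overlap in any of the 3 genes. The *hsp-16* genes have close copies, and reads that fitted several copies equally well were not counted. Without the filter 6 of 15 were higher at that size, beside 3.99% of all genes in that fit. *hsp-17* rose from 1840.2, 1870.2 and 1909 to 2963, 2999 and 2979.7 (0.67 ± 0.04). *hsp-12.6* was left out by the filter, with 0, 1 and 3 reads in EV and 15, 9 and 15 with *his-3* RNAi.

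In the list of mitochondrial chaperones and proteases none of 16 genes rose and 14 fell, with a median of -0.33. *hsp-60* had 12455, 13444 and 12119 normalised counts in EV and 9495, 9780.3 and 9405 with *his-3* RNAi (-0.41 ± 0.05) and *cco-1* RNAi had 17685, 18536 and 17278. The only member past a log2 size of 1 was *lonp-2*, at -1.01 ± 0.06, which is the ortholog of the peroxisomal Lon protease and not of the mitochondrial one, so no mitochondrial gene of the list fell by that size. With *act-1* and *pmp-3* as the scale, 3 of the 16 rose and 3 fell, so the direction of the small falls depended on the scaling, and the call of *hsp-60* was lost.

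Some regulators changed as well. *zip-10*, a bZIP transcription factor, had 213, 181 and 205 normalised counts in EV and 1057, 1155 and 1107 with *his-3* RNAi (log2 fold change 2.47 ± 0.07, adjusted p = 5.6e-14), and its *cco-1* RNAi values were 201, 208 and 194. *cebp-1* went from 339, 378 and 309.5 to 973, 1067 and 989 (1.57 ± 0.07), the STAT-related *sta-2* rose by 1.25 ± 0.11 and the GATA factor *elt-3* by 0.98 ± 0.07, whereas *zip-3* changed by -1.22 ± 0.07. Among 26 autophagy genes 14 rose and 3 fell, beside 26.9% and 27.9% of all genes. The cargo adaptor *sqst-1* had 1421, 1486 and 1349.7 normalised counts in EV and 2965, 3411 and 3463 with *his-3* RNAi (1.21 ± 0.06), *lgg-2* rose by 1.13 ± 0.06 and *lgg-1* by 0.77 ± 0.04. In the list of small RNA pathway genes the largest change was that of *rrf-2*, related to RNA-dependent RNA polymerases, from 269.6, 312 and 310.4 to 849, 827 and 930.0 (1.55 ± 0.07).

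Yolk genes fell, and in several lipid pathways more genes fell than rose under TMM scaling. All 6 vitellogenins, the yolk proteins that the intestine makes from the late L4 stage on, were lower, 5 of them by a log2 size of at least 1. *vit-2* had 23244, 27790.5 and 24936 normalised counts in EV and 5034, 5096 and 4673 with *his-3* RNAi (log2 fold change -2.36 ± 0.08, adjusted p = 2.0e-13). *vit-6* went from 36188, 43044 and 38344 to 13343, 14710.5 and 12969.7 (-1.52 ± 0.09), *vit-5* changed by -2.88 ± 0.15, *vit-4* by -3.38 ± 0.15 and *vit-1* by -0.71 ± 0.06. The vitellogenins are close relatives, and reads that fitted several of them equally well were not counted. Vitellogenin levels also depend on age within the stage, and the age of the animals was not tested.

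*fat-7*, a stearoyl-CoA desaturase, went from 974, 1108 and 1024 to 146, 164.6 and 148 (log2 fold change -2.76 ± 0.08, adjusted p = 3.5e-14). The elongases *elo-5* and *elo-6*, which make branched-chain fatty acids, changed by -1.39 ± 0.04 and -1.75 ± 0.06, whereas the desaturase *fat-4* rose by 0.38 ± 0.05. In the list of desaturases and elongases 5 rose and 13 fell of 21, against 8 and 9 when scaled to *act-1* and *pmp-3*. Of 15 genes of peroxisomal beta-oxidation none rose and 12 fell, against 3 and 10 with that scaling. *acox-1.4*, an acyl-CoA oxidase, had 3256, 3479.8 and 3356 normalised counts in EV and 582, 585 and 592 with *his-3* RNAi (-2.52 ± 0.05) and *acox-1.2* changed by -1.89 ± 0.04. Among 17 genes of lysosomal lipases and lipid binding 4 rose and 9 fell, against 7 and 7 with that scaling. The lipases *lipl-2* and *lipl-1* changed by -2.71 ± 0.10 and -1.86 ± 0.08, and the lipid carrier *lbp-8*, a low-count gene, had 32.1, 26.5 and 30.3 normalised counts in EV and 4.68, 3.68 and 1.89 with *his-3* RNAi (-3.07 ± 0.36).

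Fat oxidation genes, including targets of the nuclear receptor NHR-49, moved both ways. Of 22 tested 6 rose and 15 fell, against 7 and 10 when scaled to *act-1* and *pmp-3*, and at a log2 size of at least 1 there were 4 higher and 4 lower. The largest change in the list was a rise. *acs-2*, an acyl-CoA synthetase, had 17.6, 35.3 and 15.1 normalised counts in EV and 4110.3, 5092 and 5971 with *his-3* RNAi (log2 fold change 7.82 ± 0.18, adjusted p = 4.8e-15). *ech-9*, an enoyl-CoA hydratase, rose from 13.5, 12.15 and 15.1 to 199, 124 and 150.1 (3.52 ± 0.23). Both genes were low in all EV libraries and without overlap. *acdh-1* and *hphd-1*, which act in the propionate shunt, fell, *acdh-1* from 46609, 47547 and 45652 to 13481, 12759 and 14134 (-1.79 ± 0.06) and *hphd-1* by 1.31 ± 0.05 on the log2 scale.

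Detoxification families were mixed, and which direction held more members depended on the scaling. Under TMM the counts at a log2 size of at least 1 were 11 higher and 19 lower of 68 tested for cytochromes P450, 9 higher and 17 lower of 65 tested for UDP-glucuronosyltransferases and 5 higher and 13 lower of 45 tested for glutathione S-transferases. Over all genes the shares at that size were 7.87% higher and 3.6% lower. With *act-1* and *pmp-3* as the scale the family counts were 15 higher and 14 lower, 12 and 12, and 8 and 11, beside 1934 and 357 of all 16817 genes. The excess of lower members was then kept only for the glutathione S-transferases. The medians under TMM were -0.19, -0.41 and -0.47, and that of the P450 genes became 0.10 with the other scaling. *gst-4*, a target of the oxidative stress factor SKN-1, had 1962, 2078 and 2012 normalised counts in EV and 352, 285 and 358 with *his-3* RNAi (log2 fold change -2.60 ± 0.07, adjusted p = 2.4e-14) and *gst-5* changed by -1.76 ± 0.06. Among the P450 genes *cyp-35A5* changed by -2.98 ± 0.08, *cyp-13A6* by -2.94 ± 0.06 and *cyp-34A9* by -2.49 ± 0.06. *ugt-22* went from 10945, 10776 and 10993 to 3539, 3394 and 3529 (-1.64 ± 0.04), *ugt-47* changed by -1.84 ± 0.05 and *ugt-6* by -2.15 ± 0.06. Among the genes that rose, *ugt-18* had 2, 1 and 0 reads in EV and 116, 109 and 113 with *his-3* RNAi. The metallothionein *mtl-2* went from 1031, 924 and 922 to 134, 96.6 and 129, without overlap.

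Proteases of the gut moved both ways. *asp-12*, an aspartyl protease, went from 60.1, 96.1 and 50.2 to 1894, 2085 and 1868 (log2 fold change 4.84 ± 0.12, adjusted p = 8.4e-15), and *asp-13* from 8568, 8418 and 8095 to 1306, 1379 and 1453 (-2.60 ± 0.05). The cathepsins *cpr-6* and *cpz-1* changed by -1.28 ± 0.05 and -1.49 ± 0.06, while *cpr-3* rose by 2.23 ± 0.09. Many such genes are expressed in the intestine, and all 7 intestine markers fell, 4 of them also on the scale of *act-1* and *pmp-3*. Their summed normalised counts were 103727 to 113815 in EV and 67526 to 82262 with *his-3* RNAi, and none was at 0. The esterase *ges-1* had 1768, 1762 and 1728 normalised counts in EV and 738, 743 and 728 with *his-3* RNAi (-1.25 ± 0.04), *pho-1* changed by -1.54 ± 0.05, *vha-6* by -1.13 ± 0.05 and the intestinal GATA factor *elt-2* by -0.37 ± 0.06, a call lost with that scaling. Falls were not particular to the intestine markers, but not every tissue list fell. Of 5 body wall muscle markers 4 fell and none rose, 3 of them falling on that scale too. Their median was -0.46, beside -0.49 for the intestine. Of 6 germline markers 4 fell and 1 rose, against 1 and 3 on that scale. Of 5 pharynx markers none rose or fell under TMM, and of 5 hypodermis markers 3 rose and none fell. The medians of these 2 lists were 0.02 and 0.24. By a log2 size of at least 1, 3 intestine markers fell and no muscle or germline marker did. In whole-worm RNA, fewer cells of a tissue and less RNA per cell cannot be told apart, and the part of the intestine markers in the falls of yolk, lipid and detoxification genes was not tested.

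**Figure D5:**
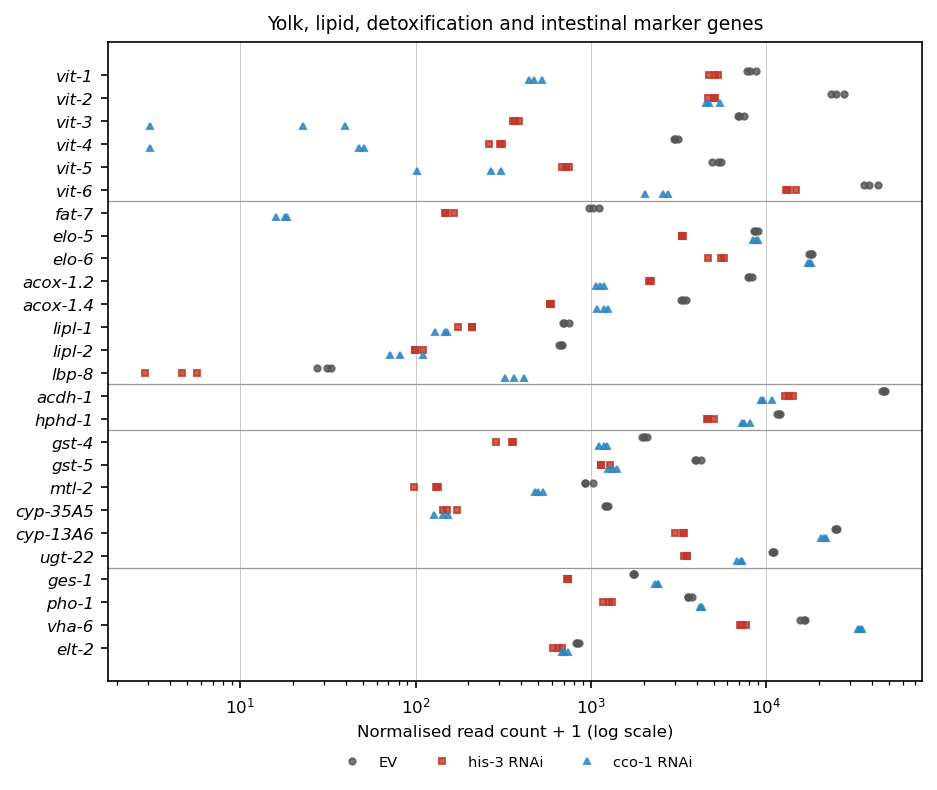
Normalised read count plus 1 (log scale) in every library for vitellogenins, lipid genes, *acdh-1* and *hphd-1*, detoxification genes and intestine markers (separated by horizontal lines). In each gene the 3 *his-3* RNAi points lie to the left of the 3 EV points, as in *fat-7* with 146, 164.6 and 148 against 974, 1108 and 1024.

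Genes of the cuticle and of developmental timing were examined because both groups were harvested by stage. All 6 furrow collagens, which form the annular furrows of the cuticle and are made early in each moulting cycle, rose, with a range of 0.96 to 1.21. *dpy-10* had 1285, 1354 and 1391 normalised counts in EV and 2739.6, 3263 and 3323 with *his-3* RNAi (1.21 ± 0.07) and *dpy-7* changed by 0.98 ± 0.08. The matrix gene *fbn-1* rose from 606, 694 and 610.5 to 2513, 3169 and 3588 (log2 fold change 2.28 ± 0.12, adjusted p = 6.5e-11) and *let-653* by 1.45 ± 0.11. Of 131 numbered collagens 20 rose and 81 fell, mostly by less than a log2 size of 1, with a median of -0.41 that becomes -0.12 when scaled to *act-1* and *pmp-3*.

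*col-42* went from 771, 718 and 839.5 to 3296, 4893 and 4981, without overlap, and *col-98* rose by 1.96 ± 0.10, while *col-76* changed by -1.61 ± 0.06. The adult collagen *col-19* had 4047, 4381 and 4407 normalised counts in EV and 2829, 2749 and 2292 with *his-3* RNAi (-0.71 ± 0.11), and *cco-1* RNAi libraries held 4, 41 and 37 reads. Of 14 heterochronic genes, which time larval development, 8 rose and none fell. *lin-46* changed by 1.16 ± 0.17, *lin-41* by 0.58 ± 0.04 and *lin-29* by 0.52 ± 0.07. These stage-dependent genes moved along with the comparison, and the part of a difference in age between the groups was not tested.

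Oocyte and neuropeptide genes mostly rose, nearly all by less than a log2 size of 1. Over the 5 scalings 19 to 22 of 24 oocyte and eggshell genes and 55 to 81 of 100 neuropeptide genes were higher. Over all 16817 genes the count that was higher ranged from 4140 to 9450. Major sperm protein genes counted 11 higher and none lower of 29 under TMM, with a median of 0.11 and none at a log2 size of 1. With *act-1* and *pmp-3* as the scale 28 were higher, as were 9450 of all 16817 genes. In the list of oocyte and eggshell genes, under TMM, 19 rose and 2 fell of 24, with a median of 0.43. *pos-1* had 943, 825 and 862 normalised counts in EV and 1615, 1663 and 1494 with *his-3* RNAi (0.86 ± 0.06) and *puf-5* changed by 0.70 ± 0.07. Neuropeptide genes rose in 60 and fell in 7 of 100 cases, with a median of 0.35. *nlp-51* went from 57.02, 40.9 and 52.1 to 119, 141 and 115 (1.31 ± 0.15) and *nlp-49* rose by 0.72 ± 0.06. Of 8 neuron markers 4 rose and none fell, with summed counts of 9795 to 10060.3 in EV and 11020 to 12561 with *his-3* RNAi. Insulin-like peptides moved both ways, such as *ins-7* at 1.61 ± 0.19 and *ins-35* at -1.63 ± 0.23.

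Abundant housekeeping lists fell by small and even amounts under TMM scaling. All 72 nuclear-encoded respiratory chain genes were lower, with a median of -0.40, among them *cox-5B* at 12749, 12691 and 12509 normalised counts in EV and 9261, 9633 and 9409 with *his-3* RNAi (-0.42 ± 0.05). The counts were 81 of 82 cytosolic ribosomal protein genes, 66 of 69 mitochondrial ribosomal protein genes, 32 of 33 proteasome genes and 35 of 42 sarcomere genes, with medians of -0.33, -0.43, -0.33 and -0.43. With *act-1* and *pmp-3* as the scale, 25 respiratory chain genes, 4 cytosolic ribosomal protein genes and 7 proteasome genes were lower. On that scale 29 mitochondrial ribosomal protein genes were lower and 3 higher, and 21 sarcomere genes were lower and 5 higher. *act-1* is itself an abundant muscle gene, and which scaling is nearer to the amount per cell was not tested.

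Set directly against *cco-1* RNAi, *his-3* RNAi gave 13% of genes higher and 8.22% lower at a log2 size of at least 1. All core histone genes tested but 1 were higher by that size, 30 of 31, with a median of 4.14, and *his-37* was the exception. Summed H3 counts were 113 ± 13.7 (SD, n = 3) with *cco-1* RNAi, below those of both other groups. *B0507.8* was higher by 8.74 ± 0.17 and *pals-4* by 8.11 ± 0.28. In the other direction *F22B3.7* had 3.75, 0 and 2.83 normalised counts with *his-3* RNAi beside 3022, 2775 and 2842 with *cco-1* RNAi, and *cyp-14A4* had 122, 96.6 and 181 beside 11282, 11331 and 10765. Of 131 numbered collagens 81 were higher than with *cco-1* RNAi by a log2 size of at least 1. *col-60* differed by 7.90 ± 0.12, with 46.04, 25.96 and 62.4 in *cco-1* RNAi, 11077, 10808 and 9723 in *his-3* RNAi and 14800.5, 14610.5 and 14579 in EV, so its *cco-1* RNAi libraries stood apart from those of both other groups.

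The share of genes that rose differed between chromosomes. At a log2 size of at least 2, 6.10% of 3527 tested genes on chromosome V were higher, compared with 1.93% on I, 3.31% on II, 1.85% on III, 3.06% on IV and 2.17% on X. Genes lower at that size were also most frequent on V, at 1.47%, and least on I, at 0.189%. Of 704 pseudogenes tested 4.69% were higher, and of 15730 protein-coding genes 3.17%. Neighbouring members of a family are not independent. The part of family clusters, or of the level in EV, in these shares was not tested.

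The level of a gene in EV went with the direction. Among genes with a mean of up to 10 normalised counts in EV, 23.5% were higher at a log2 size of at least 2 and 0.154% lower. Those shares were 0.557% and 0.723% between 100 and 1000 counts, and over 10000 counts none of 493 genes was higher and 0.609% were lower. A gene low in EV has to be read elsewhere to pass the filter and cannot fall far, which raises the first share by construction. With levels taken from the *cco-1* RNAi libraries, 11.6% of the genes with up to 10 counts were higher and 0.781% lower. Over 10000 counts the shares were 0.662% and 0.442%. The contrast leaves these libraries out, but the filter and the fit use them. A gene low in them passes the filter mostly through reads in EV or with *his-3* RNAi, so these shares are not free of the filter either.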

How the data were processed

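RNA was extracted from whole L4 worms of 3 cultures a group (EV, *his-3* RNAi and *cco-1* RNAi), and stranded poly(A) libraries were sequenced. The authors aligned the reads with STAR 2.5.3a to the WBcel235 genome and counted them per gene with HTSeq. The deposited counts are whole reads that were not normalised, and whether the counting used the strand is not given in the sources used here. Reads aligned to several places, at 6.30% to 7.27% of the total in EV and *his-3* RNAi libraries, were left out of library sizes and tests. So were reads that HTSeq assigned to no feature. All 9 columns of counts could be matched to a labelled sample, and no per-sample column was left over.

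The study's filter was applied, so a gene needed over 5 reads in at least 4 of the 9 libraries. All libraries entered 1 fit with edgeR 4.0.16 (quasi-likelihood test, TMM factors, group as the only term) in R 4.3.3, with p-values adjusted by Benjamini-Hochberg over the 16817 genes. Fold changes used a prior count of 0.125, and normalised counts are reads divided by the effective library size times its mean. The study names limma, which was run as an alternative with voom (limma 3.58.1), as was DESeq2 1.42.0. Of 17 alternative fits, the others changed the scaling, the filter, the prior count or the samples. The fit was tested on simulated data with known changes. Symbols and positions came from the Ensembl 115 annotation of WBcel235, which matched 16702 tested genes, and 365 genes that shared a symbol took the RefSeq name at the same place. Genes were named by a rule (histone genes, the 15 largest changes each way among genes with a mean count of at least 100, the 10 highest genes with at most 1 read in each EV library, the 10 largest differences each way from *cco-1* RNAi, genes the study measured by PCR, and in each of 76 lists the 5 lowest p-values and both extremes), and exceptions are stated. The members and the lists were chosen with earlier results of these data known. A planned comparison of sequence shared with *his-3* was not run, and no sequences were used here. With n = 3 a side an exact permutation test cannot go below p = 0.1.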

Additional observations from a re-analysis of the deposited data

Results flagged for a closer look

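Among the genes that the filter left out of the tests, 117 had more than 5 reads in each *his-3* RNAi library and at most 1 read in each EV library. They make up most of the 141 genes of that kind, and the same count among untested genes was 18 for *cco-1* RNAi against EV and 2 for EV against *his-3* RNAi.

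Reads that HTSeq assigned to no feature, which enter no comparison of genes, took a mean of 1.04% ± 0.0780 (SD, n = 3) of the reads with *his-3* RNAi. The counts do not tell whether such reads lie between genes or within them, in introns or on the other strand. The share was 0.767% ± 0.0194 in EV and 0.752% ± 0.0416 with *cco-1* RNAi. The lowest *his-3* RNAi library, at 0.969%, lay above the highest EV library, at 0.785%. The exact two-sided permutation test of *his-3* RNAi against EV gave p = 0.1, the smallest that 3 against 3 allows.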

How the results depend on the processing

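At a log2 size of at least 2, 664 genes were called against EV, and 658 to 691 when each library was left out in turn. DESeq2 called 654 genes, limma-voom 666 and a prior count of 2 gave 550. Asking for 50 reads in 3 libraries gave 513, of which 463 were shared. Without the filter 951 genes were higher in place of 544, which are 3.99% of 23808 genes in place of 3.23% of 16817. That fit also included genes read in 1 group only. Calls of any size moved with the scaling. Of the 4525 higher and 4688 lower, library size alone gave 8373 and 2457, and the scaling to *act-1* and *pmp-3* gave 9450 and 1827, with 357 in place of 606 lower at a log2 size of at least 1. The median over all genes was 0.02 under TMM, 0.10 with upper quartile scaling, 0.24 with library size and 0.31 with *act-1* and *pmp-3*.

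In the lists, 28 *pals* genes and *cul-6* in place of 17 were higher by a log2 size of at least 1 without the filter, and 28 F-box genes in place of 49 with 50 reads in 3 libraries. With library size alone 40 cytosolic ribosomal protein genes in place of 81 and 20 proteasome genes in place of 32 fell. With *act-1* and *pmp-3* as the scale, 4 cytosolic ribosomal protein, 29 mitochondrial ribosomal protein, 25 respiratory chain, 7 proteasome and 21 sarcomere genes fell, and 31 DNA replication genes in place of 20 rose. Over all genes, 9450 in place of 4525 rose with that scale. At a log2 size of at least 1 in place of 2, the share that was higher went from 6.10% to 12.9% on chromosome V, from 4.69% to 11.5% of pseudogenes and from 23.5% to 41.7% of genes with up to 10 counts in EV. With bins from *cco-1* RNAi, chosen after seeing the data, the last share was 11.6% at a log2 size of at least 2. The cause of these moves was not tested.

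Of 2373 values of 150 named genes over the alternatives, 2354 kept their direction and their side of the threshold. *his-37* reversed to 0.031 with upper quartile scaling, 0.17 with library size and 0.24 with *act-1* and *pmp-3*, and *csr-1* to 0.025 with library size and 0.096 with *act-1* and *pmp-3*. *pals-25* reversed to -0.013 without EV 2, -0.010 without EV 3 and -0.049 without *his-3* RNAi 3, within a range of -0.049 to 0.13 over the libraries left out, and it passed the test on the scale of *act-1* and *pmp-3*. The calls of *elt-2* and *hsp-60* were lost under that scaling and that of *col-19* in DESeq2. *pals-22* lost its call in DESeq2, without the filter and without EV 1, EV 2, EV 3, *his-3* RNAi 1 or *his-3* RNAi 3. No sign of a pairing by replicate number was seen, though the labels do not say whether same-numbered cultures were handled together. The deviations of same-numbered EV and *his-3* RNAi libraries correlated at 0.04, 4.9e-05 and -0.02 across genes, and a fit with a replicate block called 546 genes higher and 120 lower, all 664 genes among them. The planned comparison of sequence shared with *his-3* was not run.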
